A study of Mus musculus with 3 samples.

Results

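Klf2, Klf3, S1pr1, Dapl1, Igfbp4, Txk and Satb1 are 7 mouse genes whose transcripts are associated with naive T cells, and their values were compared in CD4 T cells grown under 3 conditions. The genes were taken by name, with earlier results of these data known, and each value is the mean of the probes that match that gene alone. All 7 were found among the 19938 genes measured, each by 1 probe. Expression was measured on single-colour Affymetrix arrays, with 1 array for each of Th0, Th22 and Th17 cells. All 3 samples were splenic CD4 T cells of OT-II TCR transgenic mice (B6.Cg-Tg(TcraTcrb)425Cbn/J), which carry a receptor for an ovalbumin peptide, sorted before culture as naive cells by flow cytometry. They were activated with Ova peptide on splenic antigen-presenting cells depleted of T cells, taken from Il23a-/- mice. Th0 cells had no added cytokine, Th22 cells had IL-6 alone and Th17 cells had IL-6 + TGFβ, and RNA was taken after 60 hours of culture and a magnetic-bead purification. The age of the mice is not given in the sources used here, and naive cells before culture were not analysed here, so the values describe how the 3 cultures differ and not how far any of them had moved from the naive state.

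In T cells Klf2 encodes a zinc-finger transcription factor that keeps naive cells quiescent and in circulation. One of its direct targets is S1pr1, which encodes the receptor that guides T cells along sphingosine 1-phosphate out of lymphoid organs into blood and lymph. Signalling through the T cell receptor normally lowers both transcripts, and the forkhead factor Foxo1 sustains Klf2. Klf3 is a related zinc-finger protein that acts mostly as a repressor, and Satb1 is a chromatin organiser that binds AT-rich DNA during T cell development. Txk is a Tec-family tyrosine kinase downstream of the T cell receptor, Igfbp4 is a secreted protein that binds insulin-like growth factors, and Dapl1 encodes a small protein related to death-associated protein.

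The upstream DNA of 5 of these genes is shown because these genes differ in how they behaved across the arrays. Dapl1, Igfbp4 and Txk differed by at least 2-fold between arrays, and Klf2 and Klf3 encode factors that bind the sequence CACCC. Each sequence is the 250 bases before the most upstream start site of the gene in the RefSeq table (build GRCm38.p6), written 5′ to 3′ on the gene's strand. Capitals mark CACCC or its reverse complement GGGTG, and GTAAACA or its reverse complement TGTTTAC, a forkhead motif. No marked copy of one motif overlaps a copy of the other. The motifs were chosen after the sequences had been seen.
Dapl1, chr2:59484403-59484652, plus strand: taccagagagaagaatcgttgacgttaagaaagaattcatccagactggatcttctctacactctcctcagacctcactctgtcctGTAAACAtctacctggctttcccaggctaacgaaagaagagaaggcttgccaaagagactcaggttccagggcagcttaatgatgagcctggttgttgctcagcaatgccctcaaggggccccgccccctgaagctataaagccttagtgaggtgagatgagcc
Igfbp4, chr11:99040994-99041243, plus strand: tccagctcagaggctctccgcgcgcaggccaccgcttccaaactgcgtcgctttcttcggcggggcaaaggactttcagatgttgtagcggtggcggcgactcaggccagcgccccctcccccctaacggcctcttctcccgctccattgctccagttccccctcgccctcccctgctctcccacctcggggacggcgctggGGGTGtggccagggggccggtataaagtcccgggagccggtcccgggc
Txk, chr5:72752778-72753027, minus strand: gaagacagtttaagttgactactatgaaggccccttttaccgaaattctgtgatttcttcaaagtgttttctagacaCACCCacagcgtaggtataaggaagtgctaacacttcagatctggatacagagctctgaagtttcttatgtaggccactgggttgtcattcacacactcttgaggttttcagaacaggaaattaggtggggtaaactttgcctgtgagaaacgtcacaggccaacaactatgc
Klf2, chr8:72318812-72319061, plus strand: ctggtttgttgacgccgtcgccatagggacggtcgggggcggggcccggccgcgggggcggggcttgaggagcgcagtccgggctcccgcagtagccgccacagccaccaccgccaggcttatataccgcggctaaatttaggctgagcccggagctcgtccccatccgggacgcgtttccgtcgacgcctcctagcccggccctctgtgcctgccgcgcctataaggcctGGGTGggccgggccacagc
Klf3, chr5:64803271-64803520, plus strand: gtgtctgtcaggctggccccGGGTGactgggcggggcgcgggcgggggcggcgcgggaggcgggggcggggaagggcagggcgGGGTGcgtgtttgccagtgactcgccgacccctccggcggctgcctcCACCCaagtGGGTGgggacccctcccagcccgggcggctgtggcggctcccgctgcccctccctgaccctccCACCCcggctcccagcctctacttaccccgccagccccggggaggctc
The table held such windows for 6 of the 7 genes, the exception being S1pr1. CACCC occurred once in the Klf2 window, 15 to 19 bases before the start, once in that of Igfbp4, 44 to 48 bases before it, and once in that of Txk, 169 to 173 bases before it. The Klf3 window held 5 copies and that of Dapl1 held 0. GTAAACA was found in the Dapl1 window alone among these 5, 158 to 164 bases before the start. Satb1 has 5 start sites in the table, and their windows, not printed, held 0 to 3 copies of CACCC and 0 of GTAAACA. Of all 32851 upstream windows of this length, 52.0% held CACCC on either strand and 3.17% held GTAAACA on either strand. A match describes these letters and is not a binding site.

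The deposited values have had each probe's median over the 3 arrays subtracted, so the array in the middle reads 0 and only differences between arrays can be read. They were taken to be on a log2 scale, which the sources used here do not state. Levels were removed by the centring, so the 7 genes cannot be ranked by abundance. An alternative scaling, quantile normalization, forced the same spread on the 3 arrays. It was applied to these centred values and not to array intensities. Of the 19938 genes, 37.7% were equal on all 3 arrays, while 0 of the 7 were. With 1 array per condition no test was possible and no difference has a replicate check. As a yardstick of disagreement between probes, 2 probes of 1 gene were compared in 829 genes where at least 1 of them varied. In 95% of these genes the probes lay within 0.32 log2 of each other for Th22 minus Th0, 0.43 for Th17 minus Th0 and 0.40 for Th17 minus Th22. The spread between cultures and any error shared by the probes of an array are not part of that yardstick.

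The 7 genes did not move as a group. S1pr1, Igfbp4 and Txk were lowest in Th0 and at least 2-fold higher in both Th22 and Th17, Dapl1 was far higher in Th0 than in either, and Klf2, Klf3 and Satb1 lay within 2-fold on all 3 arrays. In all, 4 of 7 genes passed 2-fold between Th22 and Th0 (3 higher and 1 lower in Th22), where 0.808% of all genes did, 0.547% higher and 0.261% lower. The same 4 genes passed in the same directions between Th17 and Th0, where 3.03% of all genes did, 1.47% higher and 1.56% lower. Between Th17 and Th22 only Dapl1 passed (0 higher and 1 lower of 7), where 2.61% of all genes did, 1.1% higher and 1.5% lower. Genes equal on all 3 arrays cannot pass, and over the 12431 genes that varied, as all 7 did, these shares were 1.30%, 4.86% and 4.18% in the same order. The median difference of the 7 genes was 0.22 log2 for Th22 minus Th0, -0.09 for Th17 minus Th0 and -0.06 for Th17 minus Th22, and the median of all genes was 0 in each. Because both comparisons with Th0 use the same Th0 array, they are not independent of each other. In these bulk samples a smaller number of cells expressing a gene and less of its RNA in each cell cannot be told apart.

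**Figure D1:**
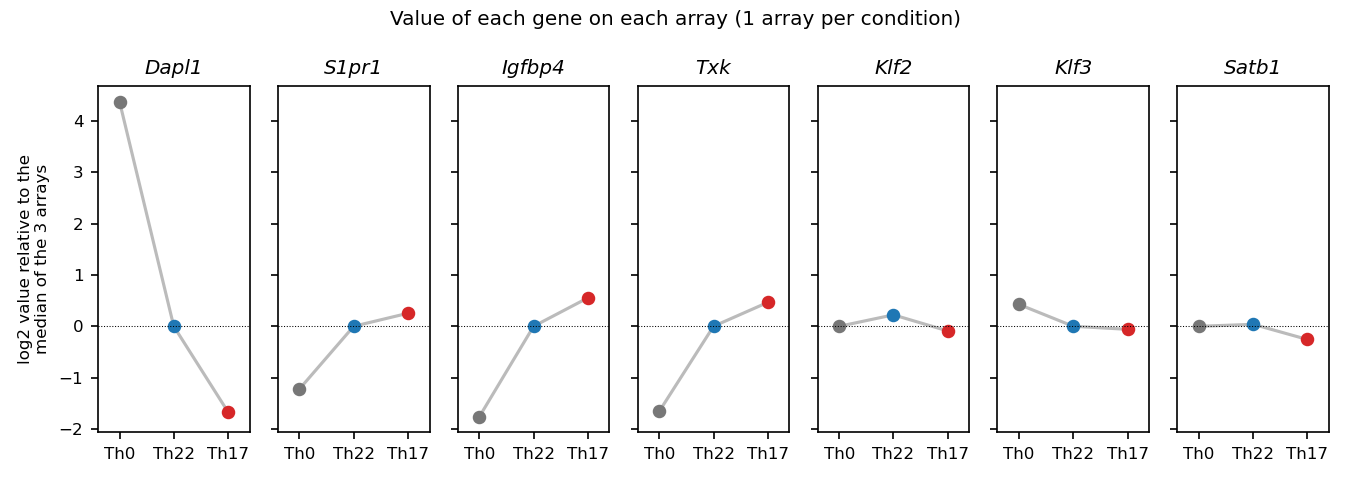
The log2 value of each of the 7 genes, relative to its median over the 3 arrays, on the Th0, Th22 and Th17 arrays (1 point is 1 array, and there is no replicate error to draw). Dapl1 runs from 4.37 in Th0 down to -1.67 in Th17, S1pr1, Igfbp4 and Txk climb from Th0 to Th17, and Klf2, Klf3 and Satb1 stay close to 0.

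S1pr1, the egress receptor, read -1.22 in Th0, 0 in Th22 and 0.25 in Th17 on the log2 scale relative to its own median. Its Th0 value stood apart and its Th22 and Th17 values lay close together. S1pr1 was 2.33-fold higher in Th22 than in Th0 and 2.78-fold higher in Th17 than in Th0. That placed it 70th from the top of 19938 genes for Th22 minus Th0 and 160th for Th17 minus Th0. Between Th17 and Th22 it differed by 1.19-fold, 0.25 log2, which is inside the probe yardstick of 0.40.

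Igfbp4, the insulin-like growth factor binding protein gene, read -1.76 in Th0, 0 in Th22 and 0.55 in Th17. As with S1pr1, the Th0 array was the low one. It was 3.39-fold higher in Th22 than in Th0, 26th from the top of all genes, and 4.97-fold higher in Th17 than in Th0, 68th from the top. Th17 exceeded Th22 by 1.47-fold, or 0.55 log2, which is under 2-fold but outside the probe yardstick of 0.40. After quantile normalization this difference was 0.41 log2, close to 0.40, although the yardstick was computed on the deposited values alone.

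Txk, the Tec-family kinase gene, read -1.65 in Th0, 0 in Th22 and 0.47 in Th17. Its differences lay within 0.19 log2 of those of Igfbp4 in all 3 comparisons. Txk was 3.15-fold higher in Th22 than in Th0 and 4.35-fold higher in Th17 than in Th0. Th17 exceeded Th22 by 1.38-fold, 0.47 log2, again under 2-fold and just outside the yardstick of 0.40. After quantile normalization this difference was 0.35 log2, below 0.40, although the yardstick was computed on the deposited values alone.

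In each of these 3 genes most of the distance between Th0 and Th17 was already present in Th22, the culture given IL-6 without TGFβ. The Th22 difference from Th0 amounted to 82.8% of the Th17 difference for S1pr1, 78.0% for Txk and 76.1% for Igfbp4 on the log2 scale. The order Th0 below Th22 below Th17, which all 3 showed, was found in 7.27% of all genes. Being at least 2-fold above Th0 in both Th22 and Th17 was found in 43 genes, 0.216% of all. The 37.7% of genes equal on all 3 arrays are counted in both shares, although they can show neither pattern.

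Dapl1 ran the opposite way and was the most extreme of the 7 genes. It read 4.37 in Th0, 0 in Th22 and -1.67 in Th17, so the arrays were well separated and each added cytokine went with a lower value. The Th0 reading, which is also its difference from Th22, was the highest of the 19938 centred gene values on that array. It is not a measure of abundance. Relative to Th0, Dapl1 was lower by 20.7-fold in Th22, the lowest of all genes in that comparison, and by 65.7-fold in Th17, the second lowest. It was also 3.17-fold lower in Th17 than in Th22, where it ranked 125th from the bottom. On the log2 scale 72.4% of the Th17 difference from Th0 was present in Th22. After quantile normalization, which forces the same spread on the 3 arrays, the difference between Th17 and Th0 was 39.3-fold and that between Th17 and Th22 was 2.01-fold, barely past the threshold.

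**Figure D2:**
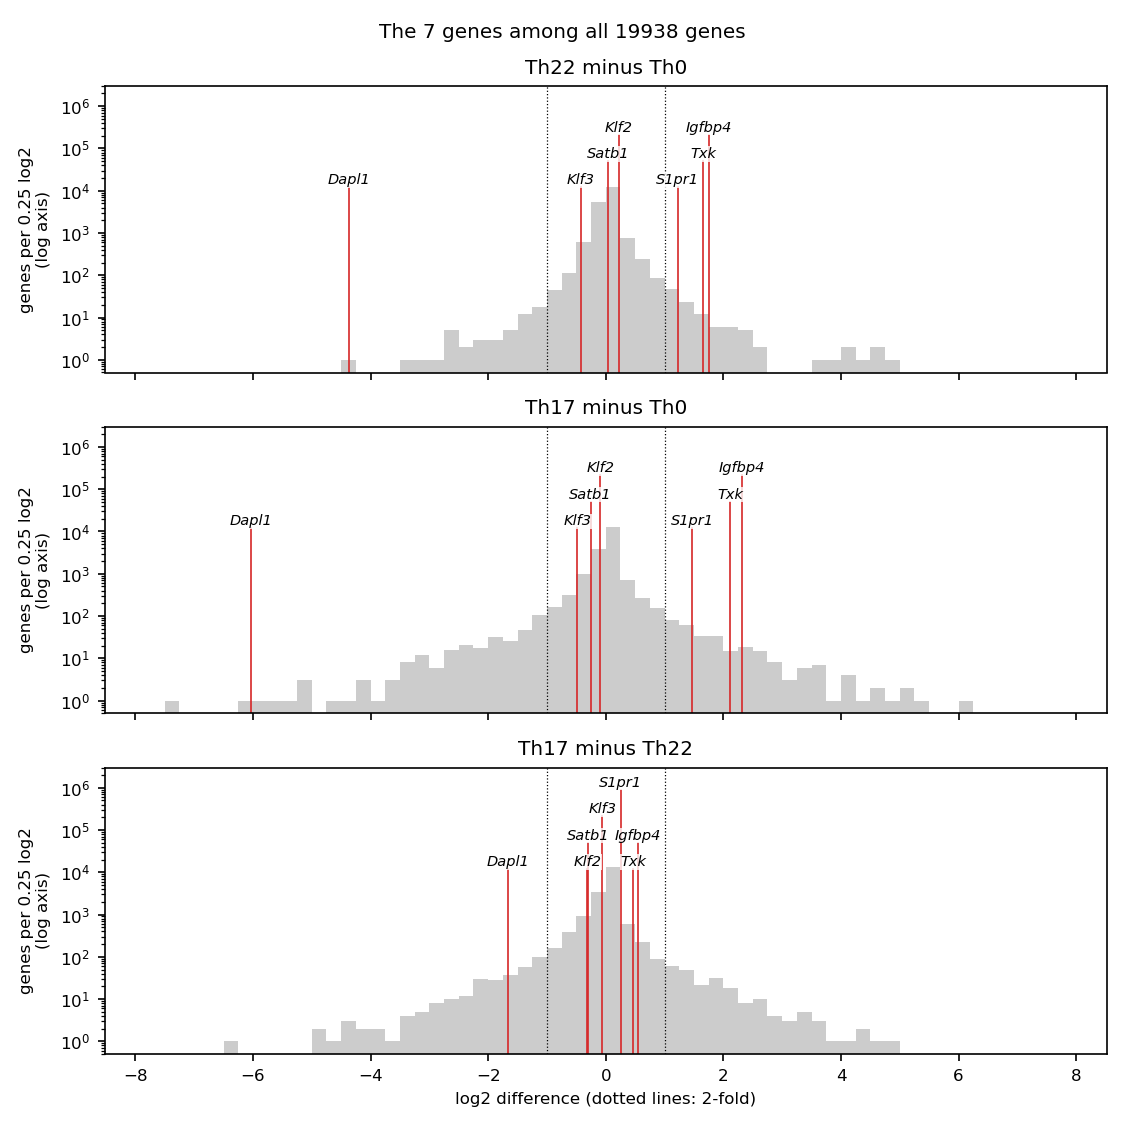
Distribution of the log2 difference over all 19938 genes in each comparison (grey bars count genes per 0.25 log2 on a log axis, dotted lines mark 2-fold), with a red line at each of the 7 genes, the height of the lines serving only to separate the names. S1pr1, Txk and Igfbp4 lie in the upper tail of both comparisons with Th0, Dapl1 lies at the lower end of both, and in Th17 minus Th22 only Dapl1 is beyond 2-fold.

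Klf2, whose product is known to act on S1pr1, did not show the S1pr1 pattern. Klf2 read 0 in Th0, 0.22 in Th22 and -0.09 in Th17. It was 1.17-fold higher in Th22 than in Th0, and lower in Th17 by 1.06-fold against Th0 and 1.24-fold against Th22. All of these differences were smaller than the probe yardstick, which sets no detection limit for a gene with 1 probe.

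Satb1, the chromatin organiser gene, behaved much like Klf2. It read 0 in Th0, 0.04 in Th22 and -0.26 in Th17, and was 1.03-fold higher in Th22 than in Th0, and lower in Th17 by 1.19-fold against Th0 and 1.23-fold against Th22, all inside the yardstick. Klf2 and Satb1 shared the order Th17 lowest, Th0 between and Th22 highest, which 6.84% of all genes showed. The 10 pan T cell genes measured, such as Cd3d and Cd4, differed by -0.59 to -0.06 log2 for Th17 minus Th22 with a median of -0.31, so the Klf2 value of -0.31 and the Satb1 value of -0.30 lay at the middle of that range. The part of this pan T cell gene difference in the values of Klf2 and Satb1 was not tested.

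Klf3, the repressor of the same zinc-finger family, was the only one of the 3 genes within 2-fold to exceed the yardstick. It read 0.42 in Th0, 0 in Th22 and -0.06 in Th17, with the Th0 array high. Relative to Th0, Klf3 was lower by 1.34-fold in Th22 and by 1.40-fold in Th17, differences of -0.42 and -0.48 log2. Th17 and Th22 differed by 1.04-fold.

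The other Klf family genes gave 15 measured members, 4 of them equal on all 3 arrays. Klf10, a gene known to be induced by TGFβ, was the only one past 2-fold. It read -0.38 in Th0, 0 in Th22 and 1.36 in Th17, and was 3.34-fold higher in Th17 than in Th0 and 2.57-fold higher in Th17 than in Th22. The second of these became 1.87-fold after quantile normalization. Klf7 was highest in Th22 (0.61, against -0.21 in Th0 and 0 in Th17) and Klf9 highest in Th17 (0.57, against -0.28 in Th0), both within 2-fold, although Klf7 reached 2.06-fold between Th22 and Th0 after quantile normalization. Klf4 differed from Th0 by -0.25 log2 in Th22 and -0.36 in Th17, and Klf6 differed by at most 0.03 log2. The list's median was 0 in every comparison, as for all genes.

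Among known regulators and targets of Klf2, 11 genes were measured and 0 passed 2-fold in any comparison. Over all genes 0.808% to 3.03% passed, depending on the comparison. The upstream factor gene Foxo1 differed by 0.0028 log2 between Th0 and Th22 and was 0.74 log2 higher in Th17 than in either. Smurf1, which encodes a ubiquitin ligase that targets Klf2 protein, was 0.77 log2 higher in Th17 than in Th0. The integrin gene Itgb7, a Klf2 target, was 0.28 log2 higher in Th22 than in Th0 and 0.07 higher in Th17 than in Th0. The medians were 0.02, 0.04 and 0.0034 log2 for Th22 minus Th0, Th17 minus Th0 and Th17 minus Th22. Cdkn1a, also a target, was not analysed here.

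Of the sphingosine 1-phosphate genes other than S1pr1, 17 were measured and 5 were equal on all 3 arrays. S1pr3, another receptor for the same lipid, read -0.34 in Th0, 0 in Th22 and 1.31 in Th17. Unlike S1pr1, its larger step lay between Th22 and Th17. It was 3.13-fold higher in Th17 than in Th0 and 2.47-fold higher in Th17 than in Th22, the latter becoming 1.81-fold after quantile normalization. S1pr2 and S1pr4 varied by at most 0.17 log2 and S1pr5 was equal on all arrays. Plpp1, which encodes a lipid phosphate phosphatase, was lower in Th17, by 2.36-fold against Th0. Cd69, whose product retains T cells by removing the S1pr1 protein from the surface, was 0.36 log2 higher in Th22 than in Th0 and 0.11 higher in Th17 than in Th0. None of the 17 passed 2-fold between Th22 and Th0, where S1pr1 did, but after quantile normalization Plpp1 was 2.07-fold lower in Th22.

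Tec, the founding kinase gene of the Txk family, had the same order of arrays as Txk, but its larger step lay between Th22 and Th17. Tec read -0.47 in Th0, 0 in Th22 and 1.37 in Th17, and was 3.59-fold higher in Th17 than in Th0 and 2.59-fold higher in Th17 than in Th22, the latter 1.87-fold after quantile normalization. Btk differed by at most 0.18 log2 and Bmx was equal on all. Of 9 measured genes of this family and of receptor-proximal signalling, Tec alone passed 2-fold, and Plcg1 was 0.76 log2 higher in Th17 than in Th0.

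Igfbp4 was the only insulin-like growth factor binding protein gene with a 2-fold difference. Of the 14 other genes of the axis 8 were equal on all 3 arrays, and the median was 0 in every comparison. Igfbp7 was 0.52 log2 higher in Th17 than in Th0, and the receptor gene Igf1r, which read -0.48 in Th0, 0 in Th22 and 0.39 in Th17, had the same order as Igfbp4 within 2-fold. Of 9 measured partner genes of Satb1 and Klf3, 0 passed 2-fold, where 0.808% to 3.03% of all genes did, depending on the comparison. The corepressor genes Ctbp1 and Ctbp2 differed by at most 0.13 log2, and Kat2b was 0.57 log2 higher in Th17 than in Th0.

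**Figure D3:**
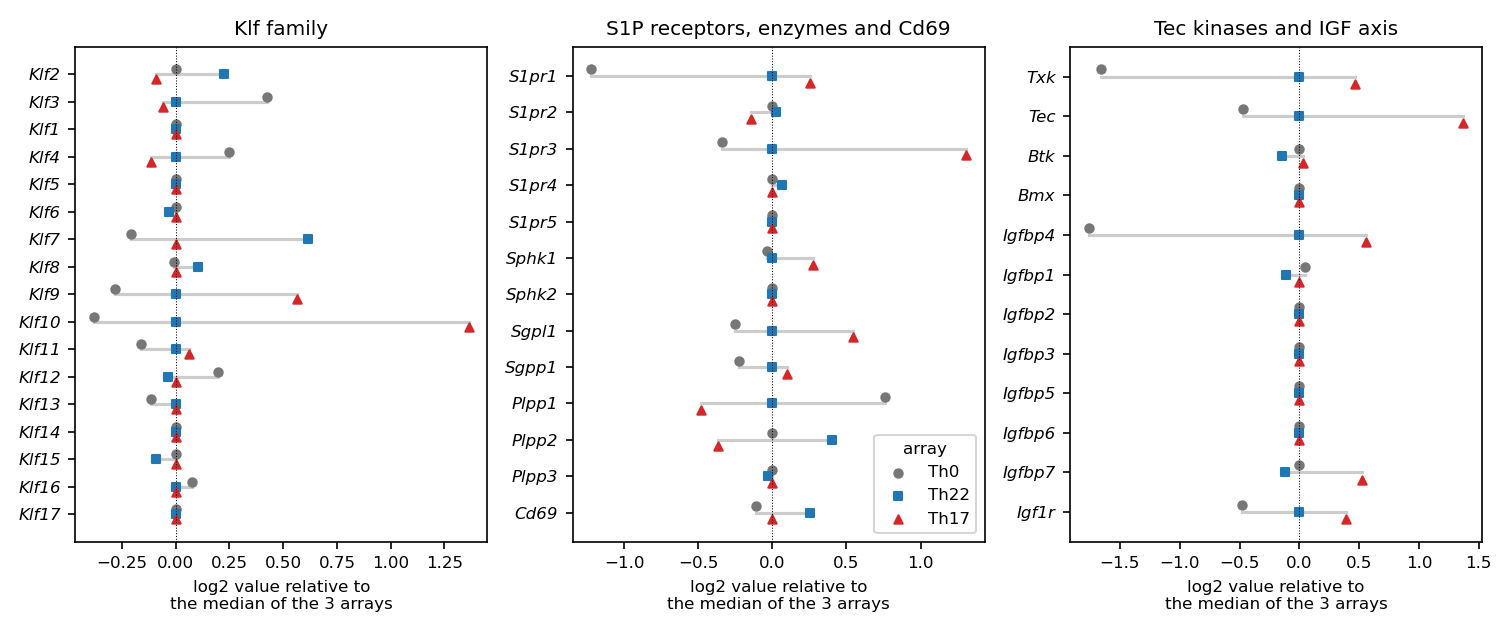
Log2 values relative to the median of the 3 arrays for the Klf family, for S1P (sphingosine 1-phosphate) receptors, enzymes and Cd69, and for Tec kinases with the insulin-like growth factor (IGF) axis (grey circles Th0, blue squares Th22, red triangles Th17, offset vertically for legibility, 1 array each). S1pr1, Txk and Igfbp4 have their long step between Th0 and Th22, while Klf10, S1pr3 and Tec have it between Th22 and Th17.

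A further 21 genes of naive and quiescent T cells were measured from a list of 24. None passed 2-fold between Th22 and Th0, 2 did between Th17 and Th0 and 1 between Th17 and Th22. The shares over all genes were 0.808%, 3.03% and 2.61% in the same order. After quantile normalization Foxp1, Slfn2 and Itga6 also passed between Th22 and Th0 (2.86-fold and 2.17-fold lower and 2.21-fold higher in Th22), and Foxp1 between Th17 and Th22 (3.42-fold higher in Th17). Ramp1, which encodes a receptor-modifying protein of the calcitonin family, had the same order as S1pr1, at -0.90 in Th0, 0 in Th22 and 1.09 in Th17. It was 3.97-fold higher in Th17 than in Th0 and 2.12-fold higher in Th17 than in Th22, the latter 1.65-fold after quantile normalization. Slfn2, a quiescence gene, had the order of Dapl1, at 0.82 in Th0, 0 in Th22 and -0.47 in Th17, and differed by 2.45-fold between Th0 and Th17.

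Ccr7 and Il7r on that list were nearly level, and others varied within 2-fold. Ccr7, the lymph node homing receptor gene, differed by at most 0.06 log2 between any arrays, and Il7r, the interleukin-7 receptor gene, by at most 0.14. Lef1, a transcription factor gene of naive cells, read 0 in Th0, 0.37 in Th22 and -0.60 in Th17, the same order as Klf2. Bach2 was 0.67 log2 higher in Th17 than in Th0, and Pik3ip1 and Itga6 were each 0.93 log2 higher in Th22 than in Th0. The medians were 0.15, 0.09 and -0.04 log2 in the order Th22 minus Th0, Th17 minus Th0 and Th17 minus Th22.

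**Figure D4:**
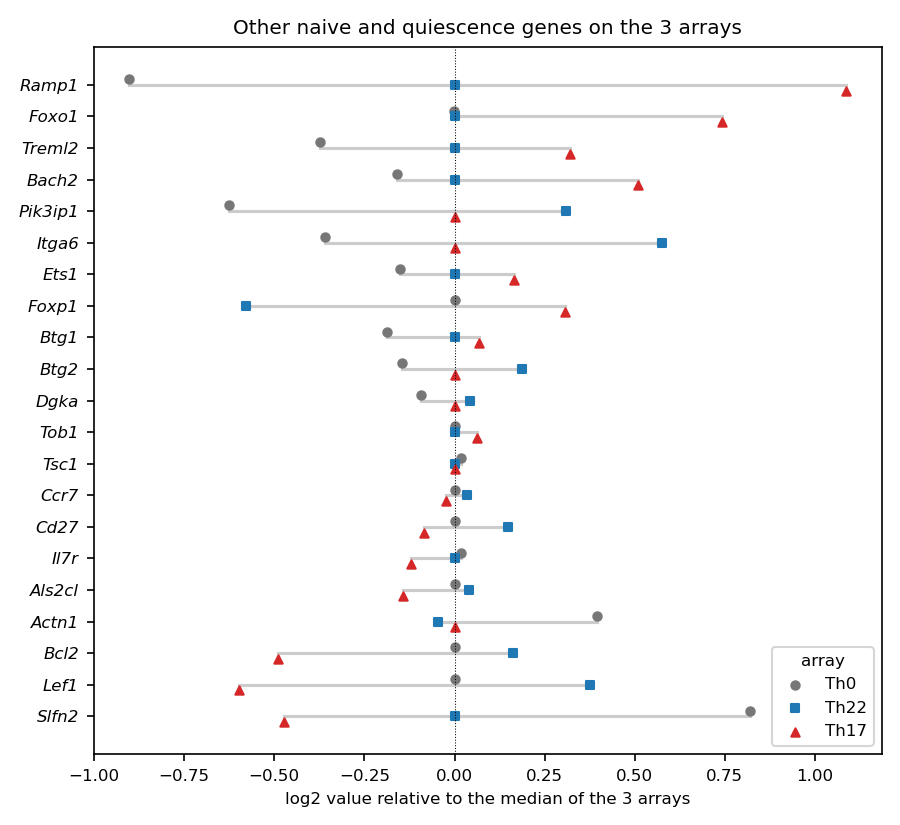
Log2 values relative to the median of the 3 arrays for 21 further naive and quiescence genes, ordered by Th17 minus Th0 (grey circles Th0, blue squares Th22, red triangles Th17, offset vertically for legibility, 1 array each). Ramp1 at the top and Slfn2 at the bottom are the only genes past 2-fold in the values as deposited, and Ccr7 and Il7r are nearly level.

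Of 10 activation genes 0 passed 2-fold between Th22 and Th0, where 0.808% of all genes did. In Th17, Cd40lg, the CD40 ligand gene, and Tnfrsf9, which encodes 4-1BB, were 2.48-fold and 3.11-fold lower than in Th0. After quantile normalization these were 1.74-fold and 1.99-fold. Against Th22, Th17 was lower in Cd40lg (3.29-fold), Tnfrsf9 (3.07-fold) and Icos (2.11-fold), and of these only Cd40lg stayed past 2-fold after quantile normalization, at 2.42-fold. Myc differed by at most 0.04 log2 and Il2ra by at most 0.14.

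The labelled cell type was checked against markers of T cells and of cells that a bead purification might leave behind. Since the centring removed levels, markers show differences alone. No pan T cell gene of the 10 measured reached 2-fold, and in Th22 all 10 exceeded Th0 by some amount (median 0.16 log2). Klf2 and S1pr1 are also expressed by B cells and endothelial cells. Of 7 B cell markers 4 were equal on all arrays, Cd79a, Cd79b and Pax5 among them, and Ms4a1 was 0.16 log2 higher in Th22 and Th17 than in Th0. The mean value over the B cell markers was -0.02 in Th0, -0.01 in Th22 and 0 in Th17. Of 8 endothelial markers 4 were equal on all arrays and the largest difference was in Pecam1, 0.72 log2 lower in Th17 than in Th22. Of 10 myeloid and dendritic markers 7 were equal on all arrays and the other 3 (Lyz2, Adgre1 and Fcgr3) were 0.09 to 0.21 log2 higher in Th0. Of 6 CD8 and NK cell markers 2, Klrb1c and Ncr1, were equal on all arrays. Cd8b1 read 0.25 in Th0, 0 in Th22 and -1.14 in Th17. It was lower in Th17 by 2.61-fold against Th0 (1.96-fold after quantile normalization). Cd8a read 0.05 in Th0, -0.15 in Th22 and 0 in Th17. Eomes (0.79 in Th0 and 0 in the others) and Klrk1 (0.57 in Th0, 0 in Th22 and -0.23 in Th17) were, like Cd8b1 and Cd8a, highest in Th0, as Dapl1 was. After quantile normalization Eomes was 2.11-fold lower in both Th22 and Th17 than in Th0. The part of these cells in the 7 genes' values was not tested. The 4 erythroid and platelet markers measured were equal on all arrays.

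For each of the 4 genes past 2-fold, the 3 genes nearest to it were found by the Euclidean distance over Th22 minus Th0 and Th17 minus Th0, that is over 3 arrays. These are the differences already given, so a short distance restates them. Igfbp4 and Txk were each among the nearest of the other, 0.22 log2 apart, Txk being second for Igfbp4 and Igfbp4 first for Txk. Igfbp4 was nearest to Pigz (0.20) and, after Txk, to Slc4a11 (0.34). Txk was followed by Ptprj, which encodes the receptor phosphatase CD148 (0.25), and Pigz (0.32). S1pr1 was nearest to the homeobox gene Vax2 (0.07), to Pik3ap1, which encodes a phosphoinositide 3-kinase adaptor (0.12), and to the Notch target gene Hey1 (0.20).

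The surroundings of these genes differed in density. The distance uses the differences from Th0 already given, by which S1pr1, Igfbp4 and Txk had been grouped. The counts below therefore restate how extreme each gene was and are not a separate result. Within a distance of 1 log2 there were 181 genes around S1pr1, 34 around Txk and 26 around Igfbp4, and each of these sets held the other 2 of the 3 genes. Around Dapl1 there were 0. Its nearest gene was the enkephalin precursor gene Penk at a distance of 2.41, followed by the cytokine genes Il13 (2.47) and Ifng (2.66), both also lower in Th22 and Th17 than in Th0. Penk was closer to Dapl1 for Th17 minus Th0 (-5.78 against -6.04 log2) than for Th22 minus Th0 (-1.98 against -4.37 log2).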

How the data were processed

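The deposited log2 table held 28853 probes on 3 arrays. Per the labels, the samples were labelled with biotin and hybridised to Affymetrix arrays. What the authors did to make the values (probe summary, background correction, normalization, log base) is not given in the sources used here, for any of these steps. A base of 2 was assumed, as was that a higher value means more RNA. Each of the 28853 probes had a median of exactly 0 across its 3 values.

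Gene names came from the platform's annotation table. Of 21789 probes with a single symbol, 21698 could be brought to current symbols through Entrez identifiers in a GRCm38.p6 gene table. Left out were 1621 probes naming several genes and 5443 unlisted ones. The probes of a gene were averaged, giving 19938 genes. A gene was counted at 2-fold or more, with no test, since each group had 1 array. Named genes are the 7 members, genes of 8 related lists (104 of 112 genes measured), markers of 6 cell types and the 3 nearest genes of each member past 2-fold. Members and lists were chosen with earlier results of these data known. The counting code was run on simulated data with large differences planted in Th17 alone, which checks the code and not these counts. Upstream sequences came from RefSeq. Alternatives were quantile normalization, the probe with the smallest difference, natural logs, a 1.5-fold threshold, probes with several symbols, and varying genes alone. Quantile normalization used the deposited values, already centred on each probe's median, because array intensities were not analysed here. Python 3.11.15, numpy 2.4.6 and pandas 2.3.3 were used.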

Additional observations from a re-analysis of the deposited data

How the results depend on the processing

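The counts of members past 2-fold (4, 4 and 1 of 7 for Th22 against Th0, Th17 against Th0 and Th17 against Th22) were the same, with the same genes, after quantile normalization, with the probe of smallest difference, with probes of several symbols, with natural logs and at 1.5-fold. Each member has 1 probe, so the probe choices could not move it. The counts over all genes moved. For Th22 against Th0 the 161 genes became 308 with quantile normalization, 343 with natural logs and 480 at 1.5-fold. For Th17 against Th0 the 604 became 420, 1021 and 1260 in the same order, and for Th17 against Th22 the 520 became 399, 859 and 1093. The lower thresholds count more genes by construction, and the cause of the quantile changes, up in one comparison and down in the others, was not tested. Quantile normalization moved the split for Th22 against Th0 from 109 higher and 52 lower to 150 and 158. It turned no member's direction, and among the 8 related lists it left 2 of 8 differences for Th17 against Th0 and 6 of 7 for Th17 against Th22 under 2-fold, and brought 5 genes past 2-fold for Th22 against Th0 (Foxp1, Slfn2, Itga6, Klf7 and Plpp1) and 1 for Th17 against Th22 (Foxp1). Among the cell type markers it brought Eomes past 2-fold in both comparisons with Th0 and left Cd8b1 under 2-fold. With natural logs every fold would be larger, for example 3.39-fold for S1pr1 and 79.3-fold for Dapl1 between Th22 and Th0. No paired analysis was possible because each group had 1 array. Signal over background is unknown, and genes with 3 equal values may simply be undetected.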
